A study of Sus scrofa with 8 samples.

Results

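The genes described here encode 9 transcription regulators that prepare the uterus for a conceptus or act in the stroma during decidual change: HOXA10, HOXA11, FOXO1, NR2F1, NR2F2, MSX1, KLF9, ID2 and RORA. They were measured in endometrium collected from 8 pregnant gilts, 4 Meishan and 4 Yorkshire, on day 12 of gestation, with 1 Affymetrix Porcine Genome array per gilt. All gilts had been mated naturally at an early estrus to boars of their own breed, and only uteri with elongated conceptuses had been used. The breeds differ in genotype throughout, so the conceptuses lying in the uterus differed in breed as well. Each sample is a piece of whole endometrium, and in such bulk tissue fewer cells of a type and less RNA per cell cannot be told apart.

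Every probeset, a group of short probes for a porcine transcript, was taken if the annotation of the array or the study's own list of probesets with a q-value under 0.1 gives it the symbol of a member. This gave 17 of the 23999 non-control probesets, for 8 of the 9 genes. HOXA11 was not analysed here. The array annotation names 13 of the 17, for 7 genes. The other 4, both probesets of HOXA10 and 2 of NR2F2, are named by the study's list alone. That list holds only probesets that differed between these same gilts, so those 4 were chosen on the comparison and their values are given as a description with no test.

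As background, the endometrium becomes receptive under progesterone, which changes the set of transcription factors in the glands, the lining epithelium and the stroma. HOXA10 and HOXA11 are homeobox factors that pattern the uterus and are needed for implantation in rodents, while MSX1 is a homeobox factor of the uterine epithelium that is known for its transient presence before implantation. FOXO1 is a forkhead factor that drives decidual genes in human stroma, and NR2F2, also called COUP-TFII, is a stromal nuclear receptor downstream of progesterone and hedgehog signalling that is also found in venous endothelium. NR2F1 is its close relative. KLF9 is a zinc finger protein that works with the progesterone receptor, ID2 is an inhibitor of basic helix-loop-helix factors, and RORA is an orphan nuclear receptor of the circadian clock. RORA and NR2F2 are separate genes and have separate probesets.

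The endometrial samples held stroma and epithelium in both breeds. None of the 7 measured stromal genes (VIM and DCN the brightest) and none of the 6 measured epithelial genes (EPCAM and CDH1 the brightest) stayed under a signal of 64 on all arrays. Signals are linear values made by the authors with the Affymetrix software GCOS 1.2, here centred on the median of each array. Summed signals of the stromal markers overlapped through Meishan gilt 1 and Yorkshire gilt 1, with 60532 to 66949 in Meishan against 50954 to 61653 in Yorkshire. Both VIM and DCN were higher in every Meishan gilt than in any Yorkshire gilt, by 0.47 and 0.27 on the log2 scale, and limma called neither (adjusted p = 0.245 and 0.487). PDGFRB, another stromal marker, was higher in every Yorkshire gilt, by 0.31, and was not called either (limma adjusted p = 0.429). Of the 7 stromal markers 4 lay toward Meishan and 3 toward Yorkshire. Summed signals of the epithelial markers lay between 25235 and 42636 in Meishan and between 27734 and 41187 in Yorkshire. Those of the 5 endothelial markers did not overlap, with 4853 to 4954 in Meishan and 5149 to 6873 in Yorkshire. Singly, 4 of these markers lay toward Yorkshire and 1 toward Meishan, and limma called 0. CDH5 was higher in every Yorkshire gilt, by 0.58 on the log2 scale (limma adjusted p = 0.185). PECAM1, the brightest, lay 0.11 toward Meishan with overlap. The mean log2 signal of the 9 probesets for control transcripts that are added at hybridization was higher on every Meishan array than on any Yorkshire array, by 1.01 on average. The 3′ to 5′ signal ratio of GAPDH, a measure of RNA integrity, overlapped between the breeds (3.41 to 7.14 in Meishan, 3.38 to 5.68 in Yorkshire). That of actin also overlapped (1.56 to 3.32 in Meishan, 2.01 to 4.45 in Yorkshire). Both ratios favoured the 3′ end on every array. The part of these differences and of the 3′ bias in the values of the members was not tested.

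The clearest breed difference among the members was in NR2F2, and it depended on the probeset. At Ssc.19579.3.S1_at the Meishan gilts, in the order of their numbers from 1 to 4, had signals of 300, 278, 412 and 247, and the Yorkshire gilts 652, 603, 719 and 675. The same order is kept throughout. Every Yorkshire gilt lay above every Meishan gilt, and the geometric mean was 304 in Meishan and 661 in Yorkshire. This is a 2.18-fold greater abundance in Yorkshire, or 1.12 on the log2 scale (SE 0.20, n = 4 gilts per breed), and it was called by limma at an adjusted p under 0.1 (adjusted p = 0.0811). It was the only call among the 13 annotated probesets, where 218 of all 23999 (0.908%) were called. The call was lost in limma without any 1 gilt other than Meishan gilt 3, with adjusted p up to 0.174 (without Yorkshire gilt 1), although the log2 difference stayed between 1.02 and 1.27 toward Yorkshire.

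At a second NR2F2 probeset, Ssc.19579.1.A1_at, signals were 1820, 1142, 1561 and 1199 in Meishan and 2761, 2358, 2701 and 2209 in Yorkshire. The breeds again did not overlap. The mean of 1404 in Meishan and of 2496 in Yorkshire gave a 1.78-fold greater signal in Yorkshire (log2 difference 0.83, SE 0.21), which limma did not call (adjusted p = 0.149). It was called in 4 alternatives, with limma adjusted p of 0.0797 among probesets with a mean signal of at least 64, 0.0775 with a floor of 32, 0.0556 with an intensity trend and 0.0989 with array weights. Only these 2 of the 13 annotated member probesets separated the breeds without overlap, where 10.1% of all probesets did so. At both, Meishan gilts 2 and 4 were the lowest of their breed, and Yorkshire gilt 3 was the highest or next to the highest of its own. The summed endothelial markers also stood higher in every Yorkshire gilt, at 5232, 6873, 6808 and 5149. The Meishan sums lay close together, between 4853 and 4954, so their order among the gilts carries little information. The part of endothelium in the breed difference was not tested.

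The brightest NR2F2 probeset, Ssc.8676.1.S1_at, gave a different picture. Its signals were 2015, 2214, 2026 and 2449 in Meishan and 2322, 2032, 2192 and 2138 in Yorkshire. The means were 2169 in both breeds, and the 95% interval of the log2 difference ran from 0.36 toward Yorkshire to 0.36 toward Meishan. The differences of 0.83 and 1.12 at the other probesets lie outside that interval. The fourth annotated probeset, Ssc.19579.2.S1_at, was dim, with 85.1, 106, 128 and 67.4 in Meishan and 130, 172, 84.5 and 74.2 in Yorkshire. The breeds overlapped there, and the log2 difference of 0.21 toward Yorkshire had a 95% interval from 0.97 toward Yorkshire to 0.54 toward Meishan (limma adjusted p = 0.807).

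The unequal behaviour of the NR2F2 probesets could be measured within each array, where scaling cancels. The log2 ratio of Ssc.8676.1.S1_at to Ssc.19579.3.S1_at was 2.30 to 3.31 in Meishan and 1.61 to 1.83 in Yorkshire, a difference of 1.12 (SE 0.22). That of Ssc.8676.1.S1_at to Ssc.19579.1.A1_at lay between 0.15 and 1.03 in Meishan and between -0.30 and -0.05 in Yorkshire, a difference of 0.83 (SE 0.22). Neither ratio overlapped between the breeds. These ratios were chosen after the values were seen and are given without a test. Since Ssc.8676.1.S1_at had equal means, they restate the differences of the other probesets on a scale free of the scaling of the arrays. Which NR2F2 transcripts each probeset detects was not analysed here.

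The 2 NR2F2 probesets named by the study's list alone also lay toward Yorkshire. Their place on that list required a difference between these gilts, so they add no support to the annotated ones. Signals at Ssc.17872.1.A1_at were 551, 492, 488 and 495 in Meishan and 1033, 1128, 784 and 720 in Yorkshire. Those at Ssc.8684.1.A1_at were 290, 268, 277 and 266 in Meishan and 408, 335, 366 and 381 in Yorkshire. The Meishan gilts lay close together at both, with an SD of 0.08 and 0.06 on the log2 scale. The breeds did not overlap at either.

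**Figure D1:**
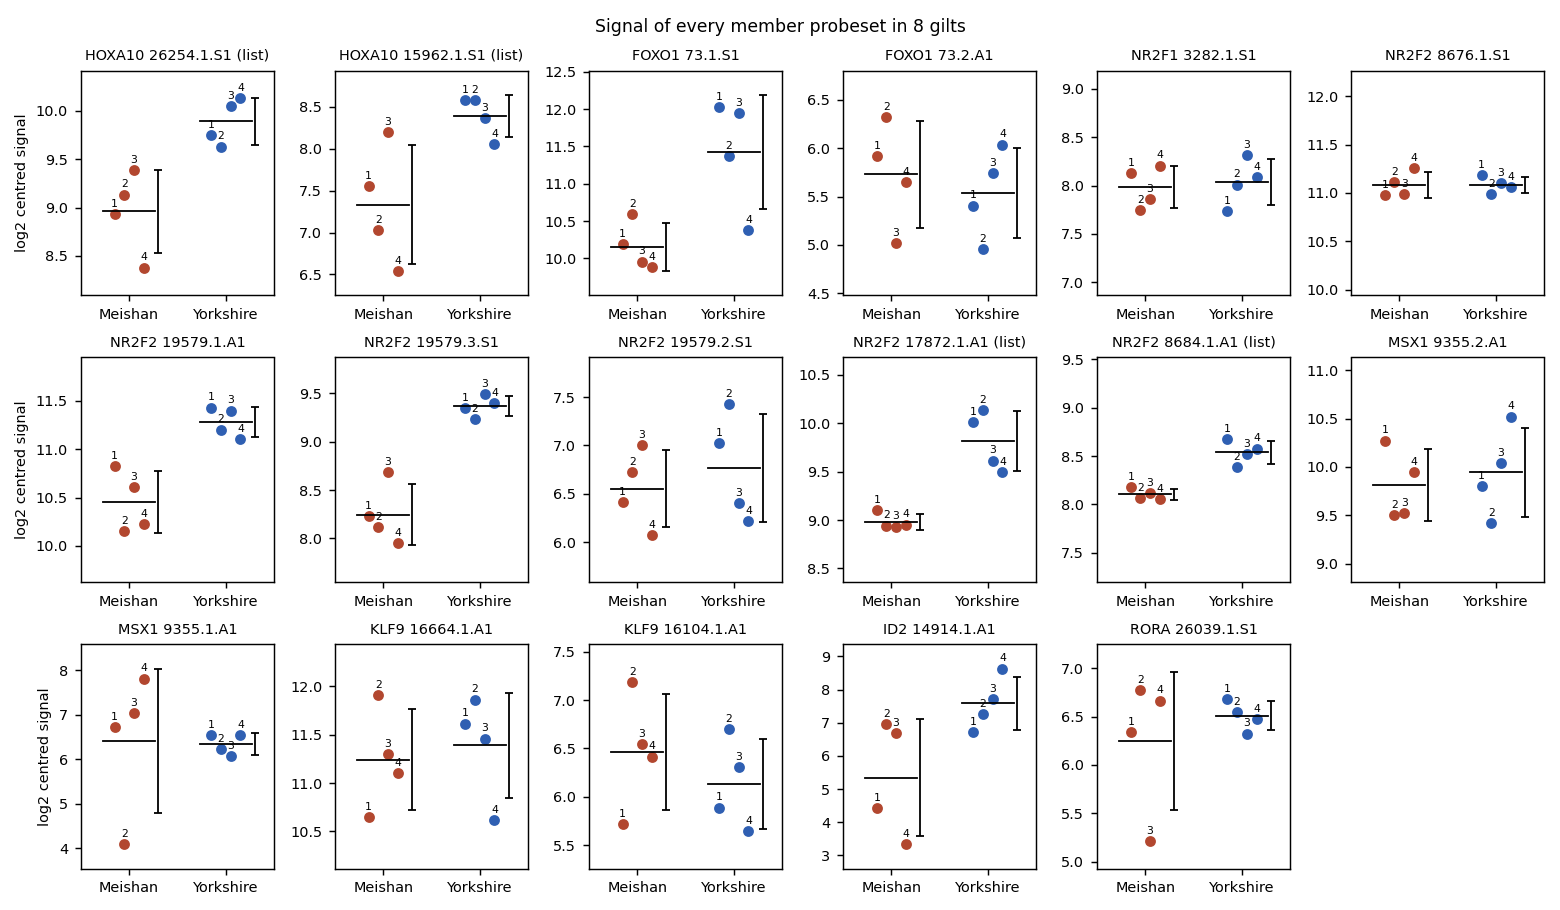
Centred signal on the log2 scale (vertical axis, a scale of its own in each panel) for each of the 17 member probesets in Meishan (red) and Yorkshire (blue) gilts, numbered 1 to 4, with the mean as a line and the SD as a bar; "list" marks the 4 probesets named only by the study's list. Among the annotated probesets the breeds are apart at 2, both of NR2F2, where 10.1% of all probesets were so, and 1 Yorkshire gilt lies among the Meishan gilts for FOXO1 at Ssc.73.1.S1_at.

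NR2F1, the close relative of NR2F2, showed no such separation. Its only probeset had signals of 279, 215, 233 and 296 in Meishan and 214, 258, 319 and 272 in Yorkshire. The ranges overlapped almost wholly, and the log2 difference of 0.05 toward Yorkshire (SE 0.20) had a 95% interval from 0.51 toward Yorkshire to 0.41 toward Meishan (limma adjusted p = 0.928). With the deposited scaling left as it was, the sign turned (0.01 toward Meishan).

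FOXO1, the forkhead regulator of decidual genes, had a signal of 1167, 1540, 994 and 941 in the Meishan gilts and 4169, 2652, 3937 and 1326 in the Yorkshire gilts at Ssc.73.1.S1_at. Yorkshire gilts 1, 2 and 3 were above all Meishan gilts, while Yorkshire gilt 4 lay within the Meishan range. The log2 difference was 1.28 toward Yorkshire (SE 0.38, 95% interval 0.39 to 2.16), and limma did not call it over all probesets (adjusted p = 0.196). Without Yorkshire gilt 4 it was 1.63 and was called (limma adjusted p = 0.0945), and it was also called with an intensity trend in the prior (0.0986). The SD among Yorkshire gilts was 0.76 on the log2 scale, against 0.32 among Meishan gilts. The other FOXO1 probeset, Ssc.73.2.A1_at, reached a signal of 64 in 1 of 4 gilts of each breed, and its log2 difference of 0.19 toward Meishan had a 95% interval from 0.59 toward Yorkshire to 0.98 toward Meishan.

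IFNG, which encodes interferon gamma, a product of the elongating pig trophectoderm, varied more among the gilts than any other conceptus marker listed and in part in the same order as FOXO1. The IFNG signal was 14.2, 904, 304 and 114 in Meishan and 4604, 221, 6286 and 33.5 in Yorkshire. Yorkshire gilts 1 and 3 were the highest for both transcripts, Meishan gilt 2 was the highest of its breed for both, and Yorkshire gilt 4 was the lowest of its breed for both. Other gilts did not follow: Yorkshire gilt 2, above every Meishan gilt for FOXO1, had less IFNG than Meishan gilts 2 and 3, and Meishan gilt 1, next to the highest of its breed for FOXO1, had the least IFNG of all. This partial likeness was seen after the values were known. Of the 9 listed conceptus markers 6 were measured, and their summed signal lay between 203 and 1196 in Meishan and between 349 and 6666 in Yorkshire. Most of this sum was IFNG in the gilts where it was highest. TFAP2C, a trophectoderm transcription factor with the lowest p of the list, had signals of 2.50, 5.12, 20.3 and 5.21 in Meishan and 26.2, 66.5, 54.8 and 71.1 in Yorkshire, without overlap but mostly under 64 (limma adjusted p = 0.105), and was highest in Yorkshire gilt 4, the lowest of its breed for FOXO1. CYP19A1 stayed under 64 on all arrays at the probeset that the annotation names for it, and CYP17A1 had a mean of 35.5 in Meishan and 31.6 in Yorkshire. IFNG itself was not called between the breeds (limma adjusted p = 0.636), and the part of conceptus material or of interferon in the FOXO1 values was not tested.

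The uterine patterning gene HOXA10 was named by the study's list alone, so its values are a description. At Ssc.26254.1.S1_at they were 490, 562, 671 and 333 in Meishan and 861, 792, 1060 and 1123 in Yorkshire, without overlap. At Ssc.15962.1.S1_at they were 188, 130, 294 and 93.3 in Meishan and 382, 383, 330 and 265 in Yorkshire. There Meishan gilt 3 lay above Yorkshire gilt 4. The mean was 1.91-fold greater in Yorkshire at the former probeset and 2.09-fold greater at the latter. In Meishan the order of the gilts was nearly the same at both, with gilt 3 the highest and gilt 4 the lowest. In Yorkshire the order was reversed, with gilt 4 the highest at the former probeset and the lowest at the latter. The correlation of the 2 probesets within breeds was 0.55.

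MSX1, the homeobox factor of the epithelium, had signals of 1237, 726, 734 and 987 in Meishan and 893, 686, 1054 and 1469 in Yorkshire at its brighter probeset, Ssc.9355.2.A1_at. The breeds overlapped, and the log2 difference was 0.14 toward Yorkshire with a 95% interval from 0.81 toward Yorkshire to 0.54 toward Meishan (limma adjusted p = 0.865). The dimmer one, Ssc.9355.1.A1_at, ranged from 16.9 in Meishan gilt 2 to 226 in Meishan gilt 4, a wider spread within Meishan (SD 1.62 on the log2 scale) than within Yorkshire (0.24). A difference in level of up to 1.59 toward Yorkshire or 1.73 toward Meishan on the log2 scale lies within its 95% interval.

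KLF9, the partner of the progesterone receptor, also overlapped between the breeds. Signals at Ssc.16664.1.A1_at were 1603, 3840, 2528 and 2205 in Meishan and 3139, 3723, 2816 and 1574 in Yorkshire, with a log2 difference of 0.15 toward Yorkshire (95% interval from 0.96 toward Yorkshire to 0.67 toward Meishan, limma adjusted p = 0.879). Those at Ssc.16104.1.A1_at were 52.7, 146, 93.4 and 85.4 in Meishan and 59.2, 104, 79.4 and 50.1 in Yorkshire, with a log2 difference of 0.33 toward Meishan (limma adjusted p = 0.712). The gilts of each breed fell in nearly the same order at both probesets, with Meishan gilt 2 and Yorkshire gilt 2 the highest. The ratio of the former to the latter was higher in Yorkshire by 0.48 on the log2 scale (SE 0.17). Its ranges did not overlap but nearly met, reaching 4.93 in Meishan and starting at 4.97 in Yorkshire. The latter probeset was dim and reached a signal of 64 in 3 Meishan and 2 Yorkshire gilts. Like the NR2F2 ratios, this ratio is given without a test, and the ratios of the FOXO1 and of the MSX1 probesets overlapped between the breeds. The annotation gives the Ssc.16104.1.A1_at probeset a gene identifier with no match in the RefSeq table used, so its name is less sure.

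ID2, the helix-loop-helix inhibitor, had the largest spread among Meishan gilts of any member probeset (SD 1.76 on the log2 scale). Its signals were 21.4, 124, 103 and 10.02 in Meishan and 105, 154, 210 and 397 in Yorkshire. Meishan gilts 1 and 4 were under the level of 64, whereas Meishan gilts 2 and 3 lay at or near the lower Yorkshire gilts, so the breeds overlapped. The log2 difference was 2.24 toward Yorkshire with an SE of 0.85 and a 95% interval from 0.29 to 4.19, and limma did not call it (adjusted p = 0.280). It was 1.67 toward Yorkshire with signals under 32 set to 32, and 1.57 without Meishan gilt 4, the gilt with the lowest signal. The Meishan mean of 40.7 is near background, so the size of the difference is not well measured on the array. The study also measured ID2 by qRT-PCR in these gilts and reported the same direction as on its arrays.

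RORA had signals of 80.9, 109, 37.1 and 101 in Meishan and 103, 93.7, 80.1 and 88.7 in Yorkshire, all dim. Meishan gilt 3 was lower than every other gilt, and the remaining 7 lay between 80.1 and 109. The log2 difference was 0.26 toward Yorkshire (SE 0.34, limma adjusted p = 0.770), and without Meishan gilt 3 it turned to 0.08 toward Meishan.

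**Figure D2:**
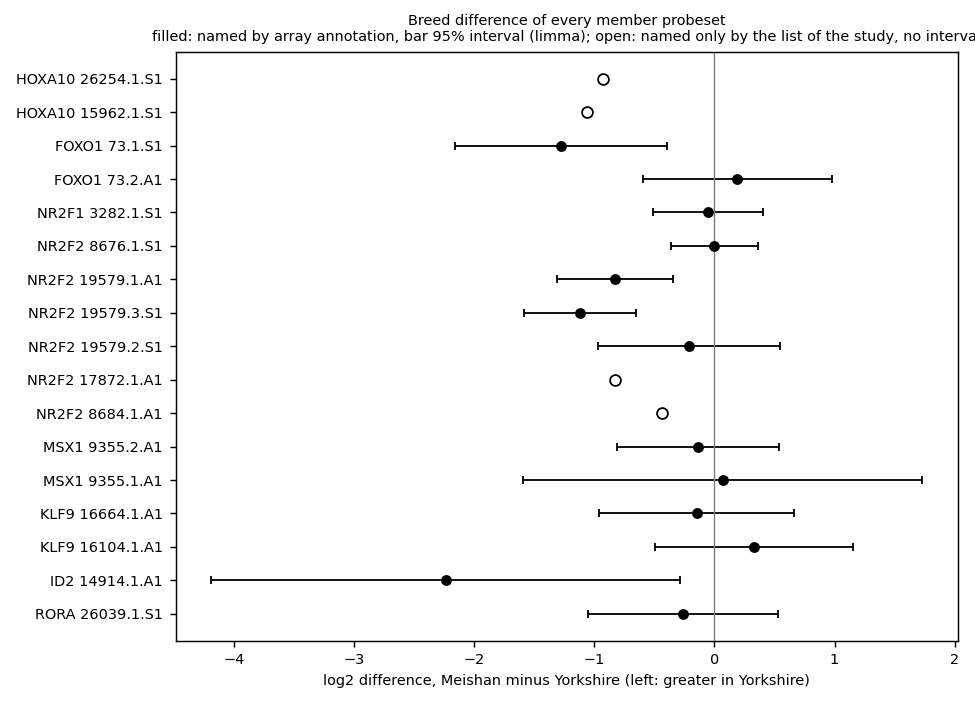
Log2 difference, Meishan minus Yorkshire (horizontal axis), for each of the 17 member probesets; filled points with bars are annotated probesets with the 95% interval from limma, and open points are the 4 probesets named only by the study's list. The interval leaves out 0 for FOXO1 Ssc.73.1.S1_at, for NR2F2 Ssc.19579.1.A1_at and Ssc.19579.3.S1_at, and for ID2, all toward Yorkshire.

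Of the 13 annotated probesets, 9 lay toward Yorkshire and 4 toward Meishan, with a median log2 difference of 0.15 toward Yorkshire, where the median of all probesets tested was 0.02 toward Meishan and 48.3% lay toward Yorkshire. An unadjusted p under 0.05 in limma was reached by 4 toward Yorkshire (FOXO1, NR2F2 at 2 probesets, and ID2, whose Meishan mean is under 64) and by 0 toward Meishan, where 6.96% and 7.79% of all probesets did so. These 4 are all on the study's list as well, which was drawn from the same gilts. Members were also chosen with earlier results of these data known. The tallies over members are therefore a description and add no support for a common direction. With each of the 7 annotated genes taken at its brightest probeset, 6 lay toward Yorkshire, and 5 did so without further scaling. This choice takes NR2F2 at the probeset with equal means. With the mean of all annotated probesets of a gene in its place, NR2F2 lay 0.54 toward Yorkshire on the log2 scale, FOXO1 0.54, and KLF9 turned to 0.09 toward Meishan.

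No gilt was high or low for all members. Yorkshire gilt 4 had the lowest FOXO1 and KLF9 signals of its breed at Ssc.73.1.S1_at and Ssc.16664.1.A1_at but the highest ID2 signal and the highest MSX1 signal at Ssc.9355.2.A1_at. Meishan gilt 4 had the lowest signals of all gilts for HOXA10, ID2 and NR2F2 at Ssc.19579.3.S1_at, and among the highest for NR2F1. Meishan gilt 2, high for KLF9 at both probesets, had the lowest signal of all gilts at MSX1 Ssc.9355.1.A1_at.

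**Figure D3:**
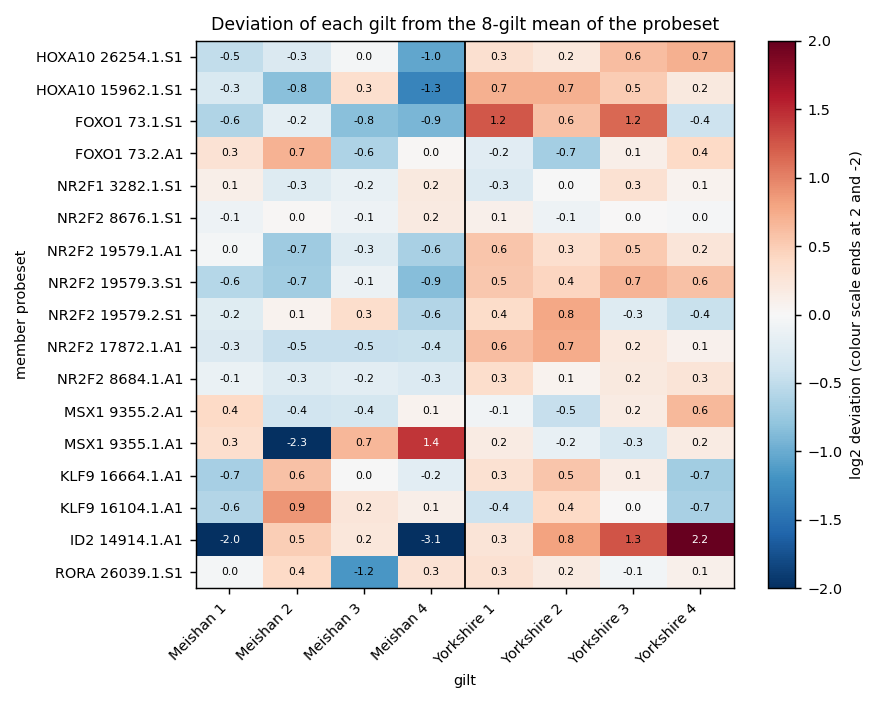
Deviation of each gilt (columns) from the mean of the 8 gilts on the log2 scale for each member probeset (rows), printed in each cell and coloured red above and blue below the mean, with colours ending at 2 and -2. HOXA10 and the NR2F2 probesets Ssc.19579.1.A1_at, Ssc.19579.3.S1_at, Ssc.17872.1.A1_at and Ssc.8684.1.A1_at are mostly blue in Meishan and red in Yorkshire, while NR2F1 and NR2F2 Ssc.8676.1.S1_at are pale throughout.

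The transcripts most like 3 of the members were sought among named probesets with a mean signal of at least 64, by the Pearson correlation of log2 signals over the 8 gilts. For FOXO1 at Ssc.73.1.S1_at they were GMPS, an enzyme of guanine nucleotide synthesis (r = 0.974), MRM2 (0.969) and CRYL1 (0.962). For HOXA10 at Ssc.26254.1.S1_at they were TCEA3, a transcription elongation factor (0.964), RCBTB2 (0.957) and ARID4B (0.950). Since this probeset was chosen for a breed difference, that difference enters the correlations over 8 gilts, and within breeds they were lower (0.873, 0.845 and 0.819 in the same order). The genes most like NR2F2 at Ssc.8676.1.S1_at were PAMR1 (0.928), TMEM120A (0.926) and NHP2, a component of small nucleolar ribonucleoproteins (0.886). All are descriptions over 8 arrays that share their handling, each the top of 5804 or 5805 genes compared, and no p is given.

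The related genes were examined in 7 lists, each gene at its brightest annotated probeset. Of the 119 genes listed, 67 were measured, 40 lying toward Yorkshire and 27 toward Meishan, where 50.7% of all genes at their brightest probeset lay toward Yorkshire. None was called by limma at an adjusted p under 0.1, where 0.576% of all such genes were. At an unadjusted p under 0.05 there were 6 toward Yorkshire and 2 toward Meishan, and 12.3% of all such genes reached it in either direction.

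All 8 measured ID proteins and basic helix-loop-helix partners of ID2 lay toward Yorkshire (median log2 difference 0.36), and they did so under each scaling tried. None of the 8 reached an unadjusted p under 0.05 in limma. Not all were bright: TCF4 reached a signal of 64 in 1 Meishan gilt and 0 Yorkshire gilts, and HAND1 in 2 gilts of each breed. ID1 had mean signals of 1811 (Meishan) and 3246 (Yorkshire), with a log2 difference of 0.84 toward Yorkshire (95% interval from 1.74 toward Yorkshire to 0.06 toward Meishan). ID3, another inhibitor of the family, had means of 3142 and 4233 and a difference of 0.43 toward Yorkshire. Of 7 KLF and SP zinc finger genes 6 lay toward Yorkshire, under each scaling tried, and KLF10, a gene induced early by TGF-beta, had the lowest p in the list, with 1870 in Meishan and 2590 in Yorkshire.

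Among forkhead factors and FOXO partners, 6 of 10 lay toward Yorkshire, or 5 without further scaling. CEBPD, a basic leucine zipper factor, had signals of 1918, 2622, 2813 and 1855 in Meishan and 3843, 3900, 3917 and 3561 in Yorkshire. The breeds did not overlap, and the log2 difference was 0.75 toward Yorkshire (limma adjusted p = 0.161). CEBPD was called in 3 alternatives, with limma adjusted p from 0.0653 with an intensity trend to 0.0895 among probesets with a mean signal of at least 64. FOXM1, a forkhead factor of the cell cycle, had means of 43.8 in Meishan and 102 in Yorkshire (limma unadjusted p = 0.0423). Its signals were 35.3, 22.8, 35.8 and 128 in Meishan and 138, 95.9, 102 and 79.7 in Yorkshire. The breeds overlapped, and only Meishan gilt 4 of its breed reached a signal of 64. The 13 measured FOXO target genes did not lie with FOXO1: 8 lay toward Meishan and 5 toward Yorkshire, and 0 reached an unadjusted p under 0.05 in limma. IGFBP1, a decidual target of FOXO1 in human endometrium, had means of 61.4 in Meishan and 52.5 in Yorkshire, near background in both.

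The progesterone, hedgehog and BMP signalling genes of the uterus were divided, with 9 of 14 toward Meishan and 5 toward Yorkshire. IHH, the hedgehog ligand of the uterine epithelium upstream of NR2F2 in mouse, had signals of 133, 168, 98.8 and 261 in Meishan and 99.6, 89.3, 84.4 and 49.4 in Yorkshire. Its log2 difference of 0.99 lay toward Meishan (limma adjusted p = 0.253), opposite to NR2F2 at Ssc.19579.3.S1_at. The brightest NR2F2 probeset, Ssc.8676.1.S1_at, had a mean of 2169 in both breeds. The progesterone receptor PGR had signals of 437, 268, 323 and 336 in Meishan and 495, 446, 468 and 579 in Yorkshire, which did not overlap, with a log2 difference of 0.56 toward Yorkshire (limma adjusted p = 0.263). HOX and other homeobox genes of the tract lay 4 of 6 toward Yorkshire, or 3 of 6 with quantile or cyclic loess normalization, and none reached an unadjusted p under 0.05. The lowest p among them was that of DLX5 (2276 in Meishan and 2988 in Yorkshire), and HOXD10 followed (528 and 647).

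Orphan nuclear receptors and clock partners of RORA lay 6 of 9 toward Yorkshire, but 4 of 9 under the other scalings tried. CRY2, a repressor of the clock, had means of 502 for Meishan and 1006 for Yorkshire (log2 difference 1.00 toward Yorkshire, limma unadjusted p = 0.0261), and NR5A2, an orphan receptor that acts in decidual change in mouse, had 255 and 171 (0.57 toward Meishan, limma unadjusted p = 0.0340).

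**Figure D4:**
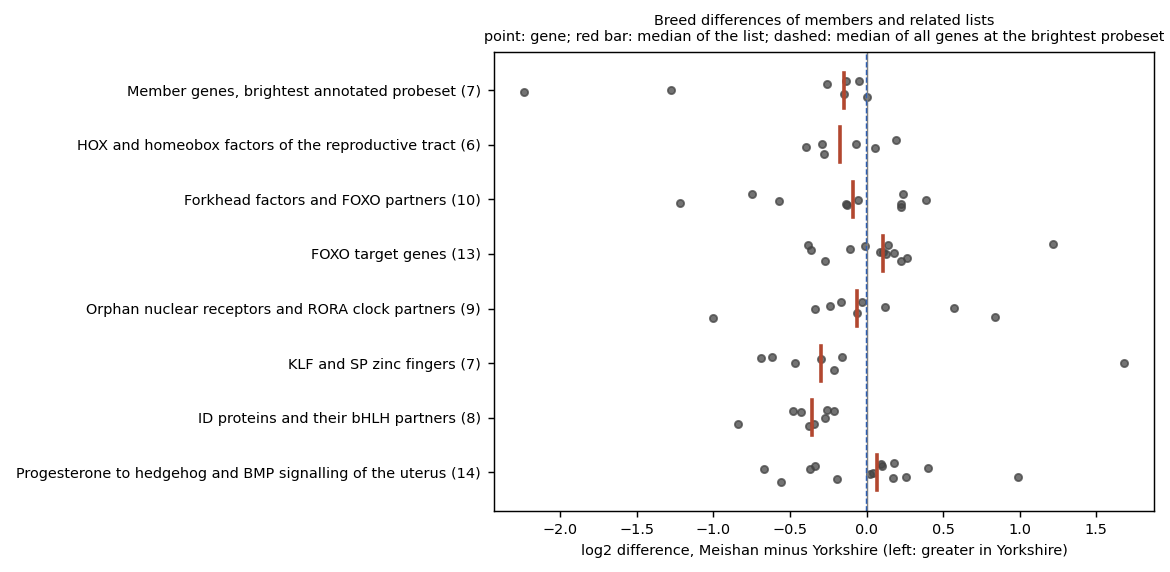
Log2 difference, Meishan minus Yorkshire (horizontal axis), of each member gene and of each measured gene of the 7 related lists at the brightest annotated probeset, with list sizes in brackets; each point is a gene, the red bar is the median of the list and the dashed line the median of all genes. All 8 points of the ID list lie left of 0, whereas the FOXO target genes lie on both sides.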

How the data were processed

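The authors deposited linear intensities, made from the scanned arrays with GCOS 1.2 (named in the submitters' processing notes), which had been scaled so that the mean after trimming 2% at each end was 500.1 on every array. The authors took natural logs and fitted a mixed model in SAS, with q-values. Here signals were put on the log2 scale, with the median of the 23999 non-control probesets of every array set to a common value. Breeds were compared with limma 3.58.1 in R 4.3.3 with Benjamini-Hochberg adjustment over all probesets, calling at an adjusted p under 0.1. Data were simulated for this comparison over 23999 probesets, with 200 changed. Changes of 1, 2 and 4 on the log2 scale were recovered in 0%, 56.5% and 87.5% of cases. The number changed was not matched to the real data, where 3540 probesets had an unadjusted p under 0.05 in limma. Recovery depends on that number, so these shares do not give the power here. NR2F2 at Ssc.19579.3.S1_at was called at a log2 difference of 1.12. The number of arrays limits the precision.

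Members and lists were chosen with earlier results of these data known. Named are all members, up to 2 genes of each list by lowest p or signal, and the 3 genes most like FOXO1, HOXA10 and NR2F2. IGFBP1, CYP19A1, CYP17A1, PDGFRB, TCF4 and HAND1 were added after their values were seen. From the study's list only symbols were used. Gilts with the same replicate number did not deviate together (r = -0.056, 0.089, 0.0010 and 0.041 for numbers 1 to 4), so the numbers were not taken as pairs. Alternatives were other scalings, a filter and a floor on low signals, other moderation, array weights, Storey q-values (unchanged share from p-values over 0.5), a stricter threshold, the replicate block and leaving out each gilt. Sequences of members were not used here.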

Additional observations from a re-analysis of the deposited data

Results flagged for a closer look

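Among the 34 groups of 4 gilts examined over the member probesets, 1 held a gilt far from the others, and chance alone gives about 1 in 20 groups. It was Meishan gilt 1 at the NR2F2 probeset Ssc.17872.1.A1_at, whose signal of 551 stood above the nearest Meishan gilt at 495, with a gap of 0.885 of the range of the Meishan gilts on the log2 scale. The whole range of the Meishan gilts at this probeset was small, and Meishan gilt 1 remained below every Yorkshire gilt.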

How the results depend on the processing

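FOXO1 at Ssc.73.1.S1_at, ID2, KLF9 at Ssc.16104.1.A1_at and NR2F2 at Ssc.19579.1.A1_at and Ssc.19579.3.S1_at kept their direction under every alternative run. The number of annotated member probesets called by limma, 1 as reported, was 0 with cyclic loess normalization, with the replicate block and at an adjusted p under 0.05 (4 reached an unadjusted p under 0.05 in each fit), 2 among probesets with a mean signal of at least 64, with a floor of 32 and with array weights, 3 with an intensity trend, and 0 to 1 without 1 gilt. NR2F2 at Ssc.19579.3.S1_at had a limma adjusted p of 0.1004 with cyclic loess normalization and 0.213 with the replicate block, and the cause was not tested. The count of related genes called, 0 as reported (8 at an unadjusted p under 0.05 in limma), was 1 with the filter, the floor and the trend. Over all probesets, the 218 calls became 668 with the filter, 863 with the floor, 626 with the trend, 497 with weights, 532 with Storey q-values, 60 at the stricter threshold, 0 with the replicate block (3327 at an unadjusted p under 0.05 in limma) and 72 (without Meishan gilt 4) to 205 (without Meishan gilt 1) without 1 gilt.

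Signs turned only where differences were small against their error. In log2 units, Meishan minus Yorkshire, NR2F1 was 0.010 without further scaling and 0.0086 with array weights, FOXO1 at Ssc.73.2.A1_at was -0.044 with quantile and -0.033 with cyclic loess normalization, MSX1 at Ssc.9355.1.A1_at was -0.043 and -0.075 in these, and NR2F2 at Ssc.8676.1.S1_at was -0.0029 with array weights. Without 1 gilt, values ranged from -0.0069 to 0.43 for FOXO1 at Ssc.73.2.A1_at, -0.40 to 0.050 for KLF9 at Ssc.16664.1.A1_at, -0.40 to 0.85 for MSX1 at Ssc.9355.1.A1_at, -0.31 to 0.055 for MSX1 at Ssc.9355.2.A1_at, -0.15 to 0.041 for NR2F1, -0.40 to 0.0071 for NR2F2 at Ssc.19579.2.S1_at, -0.058 to 0.036 for NR2F2 at Ssc.8676.1.S1_at, and -0.44 to 0.084 for RORA.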
